A study of Mus musculus with 6 samples.

Results

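The miRNAs described here are both strands of 3 related mouse hairpins, miR-28a, miR-151 and miR-708. The 6 mature sequences were chosen by name, and all 6 were found among the 1390 miRNAs of the count table. Their reads come from small-RNA libraries of the whole thymus of C57BL wild-type mice aged 5 weeks, in a series whose title concerns competing RNAs and the PI3K-AKT pathway. The irradiated group (n = 3 mice) received 6 Gy of X-rays and gave its thymus 24 h later, and the control group (n = 3 mice) was not irradiated. The labels name no genetic change or other agent in either group.

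A miRNA hairpin is cut from a longer transcript and then into a duplex whose strands are called 5p and 3p. Usually 1 strand is kept by an Argonaute protein, and its seed, bases 2 to 8, pairs with target messenger RNAs, so the strands of a hairpin have different targets. Each of these 3 hairpins lies in an intron of a large gene and on the strand of that gene, and intronic miRNAs can be made from the host transcript. MiR-28 is known for restraining germinal-centre B cells. MiR-151 is known from carcinoma, where it can be raised together with its host, and miR-708 is known for limiting the spread of tumour cells.

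The sequences are shown because the strands are read separately below and because the seed decides which of them can share targets. They are the RefSeq sequences on GRCm38.p6, 5′ to 3′, with the seed in capitals, and the deposited sequences of these 4 strands are the same.
mmu-miR-28a-5p: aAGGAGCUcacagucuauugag
mmu-miR-708-5p: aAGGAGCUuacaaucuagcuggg
mmu-miR-28a-3p: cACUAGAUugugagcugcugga
mmu-miR-708-3p: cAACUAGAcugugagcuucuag

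MiR-28a-5p and miR-708-5p had the same seed, and these were the 2 miRNAs of the table that carried it. Compared base by base from the 5′ end, they were equal at 16 of 22 positions, and the first difference was C9U, just after the seed (miR-28a-5p first, positions counted from the 5′ end). The deposited miR-151-5p does not have this seed at bases 2 to 8. The 3p strands of the 3 hairpins had 3 different seeds, so the 6 strands held 5 seeds in all. Those of miR-28a-3p and miR-708-3p share the bases ACUAGA, shifted by 1 position, and whether they share targets was not tested. The 3 are therefore related hairpins but not a single seed family. The other row with a matching family number, miR-28c, had 1 count in control replicate 2 and 0 in the other libraries.

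Mir28a lies on chromosome 16 at 24827855 to 24827940 (GRCm38, plus strand), in an intron of Lpp, which encodes a LIM-domain protein of focal adhesions. Mir151 lies on chromosome 15 at 73254815 to 73254882 (minus strand), in an intron of Ptk2, the gene of focal adhesion kinase. Mir708 lies on chromosome 7 at 96249424 to 96249532 (plus strand), in an intron of Tenm4, which encodes a transmembrane teneurin. In the GENCODE M21 annotation none of the 3 hairpins overlaps an exon of its host.

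Library totals ranged from 7730641 to 9287017 counts. Levels below are counts scaled to a fixed library total (CPM) and by trimmed-mean (TMM) factors. They are relative to the other miRNAs of a library, so a rise or fall is not a measured amount per thymus or cell. Changes are log2 values of irradiated over control from edgeR's quasi-likelihood test. Its p-values were adjusted over all 519 miRNAs tested, with a threshold of 0.05. Of the miRNAs listed as thymocyte and lymphoid, 7 of 8 were lower after irradiation, and the summed level of that list went from 99985 to 167022 CPM in control libraries to 4983 to 8084 CPM in irradiated ones. Of those listed as fibroblast and smooth muscle 5 of 7 were higher, as were 1 of 2 endothelial and 4 of 7 epithelial ones. Irradiated replicates 2 and 3 stood apart in striated-muscle miRNAs, of which 3 of 3 were higher, with summed levels of 20111 and 13393 CPM against 602 CPM in irradiated replicate 1 and 202 to 480 CPM in controls. Red-cell miRNAs (2 of 3 higher) were also highest there, at 5027 and 1981 CPM against 604 CPM in replicate 1 and 480 to 724 CPM in controls. Of the 2 listed myeloid miRNAs 0 were called. The 1 neural miRNA that was tested, miR-9-5p, was higher. So was the 1 listed liver miRNA, miR-122-5p, at no more than 4.89 CPM in any library. No listed marker was at 0 in all libraries. In whole tissue, fewer cells of a type and less RNA per cell cannot be told apart, and the part of these lists in the results below was not tested.

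The 3 hairpins were minor products of the thymus in every library. Together the 6 strands held 0.0682%, 0.104% and 0.0859% of the counts in control replicates 1, 2 and 3, and 0.103%, 0.141% and 0.115% in irradiated replicates 1, 2 and 3. In control libraries the order of mean levels was miR-151-3p at 359.8 ± 33.2 CPM, miR-708-3p at 238 ± 32.2, miR-28a-5p at 112 ± 23.4, miR-28a-3p at 51.3 ± 5.88, miR-708-5p at 31.7 ± 3.44 and miR-151-5p at 21.7 ± 4.19 (SD, n = 3). In irradiated libraries it was miR-151-3p at 587 ± 109, miR-708-3p at 334 ± 169, miR-28a-3p at 121 ± 49.2, miR-708-5p at 93.3 ± 11.9, miR-28a-5p at 81.3 ± 34.7 and miR-151-5p at 26.8 ± 8.998 CPM (SD, n = 3). In control libraries no value of a strand reached into the range of its neighbour in this order. In irradiated libraries the ranges of neighbours overlapped, except that all values of miR-151-5p were below those of the other strands. Within every library miR-151-3p was above miR-708-3p. MiR-151-3p ranked 94 by mean level among the 1390 miRNAs in control and 70 in irradiated libraries.

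Of the 6 strands, 3 were higher in irradiated thymus, 0 were lower and 3 did not pass. Over all tested miRNAs 61.3% passed, with 27.7% higher and 33.5% lower. The median log2 change of the 6 strands was 0.60, beside 0.01 over all 519 miRNAs. The strands that rose were miR-28a-3p, miR-151-3p and miR-708-5p, 1 from each hairpin, and the other strand of each hairpin did not pass. In TMM-scaled levels the ranges of the groups were apart for the same 3 strands, and for 68.6% of all tested miRNAs. The authors' deposited adjusted p-values are also under 0.05 for these 3 strands alone of the 6, and for 43.9% of the miRNAs that have one. The split of all miRNAs moved with the scaling: 45.3% of the calls were higher with TMM factors, 59.7% with upper-quartile factors and 38.4% with library totals, and the median change of all miRNAs was 0.44 and −0.13 with the latter 2 and 0.12 with median-of-ratios factors.

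**Figure D1:**
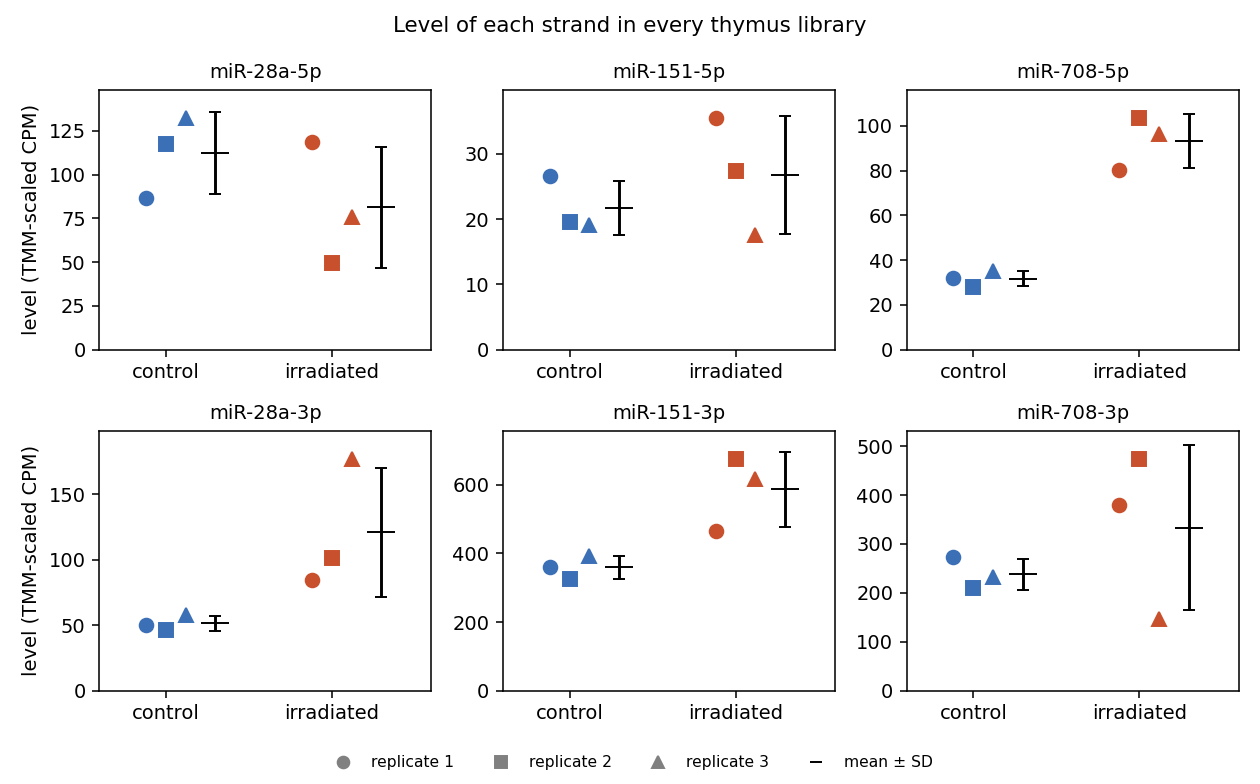
Level of each strand in TMM-scaled CPM (linear axes from 0, a separate scale per panel) in the 3 control (blue) and 3 irradiated (orange) libraries, with the mean ± SD as a black bar. The groups are apart for miR-28a-3p, miR-151-3p and miR-708-5p and overlap for the other 3 strands.

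MiR-708-5p showed the largest change of the 6. Control replicates 1, 2 and 3 had 31.9, 28.2 and 35.1 CPM, and irradiated replicates 1, 2 and 3 had 80.2, 103.6 and 96.2 CPM. Each irradiated library was above each control library, and the spread within both groups was small beside the gap. The log2 change was 1.56 ± 0.26 (SE), a 2.94-fold rise, with an edgeR adjusted p of 7.3e-04. It passed under all 17 alternatives run, with changes of 1.30 to 1.98. In 1 of these, chosen after seeing the data, irradiated replicate 1 is the only irradiated library, and its spread is assumed to be that of the controls, so its p-values do not measure the spread between irradiated mice. The authors' deposited table gives a log2 change of 1.61 for miR-708-5p with an adjusted p of 1.2e-06.

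MiR-708-3p, the more abundant strand of the same hairpin, had 273, 209 and 231 CPM in the control replicates and 379.8, 474 and 147 CPM in the irradiated ones, in the order 1, 2 and 3. Irradiated replicates 1 and 2 were above all controls and irradiated replicate 3 was below all of them. The log2 change was 0.49 ± 0.39 (SE) with an edgeR adjusted p of 0.293. Without irradiated replicate 3 it was 0.90 with an edgeR adjusted p of 0.0273, so that library decided the call. Over the alternatives with more than 1 irradiated library the edgeR adjusted p ranged from 0.0273 to 0.606.

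MiR-28a-3p, in the same order, had 50.3, 46.02 and 57.7 CPM in control mice and 84.8, 101 and 177 CPM in irradiated mice. The groups did not overlap, and irradiated replicate 3 was the highest. The log2 change was 1.24 ± 0.33 (SE), a 2.36-fold rise, with an edgeR adjusted p of 0.0083. It passed under all 17 alternatives, with changes of 0.92 to 1.67. The pass was narrow without control replicate 2, at an edgeR adjusted p of 0.0493. The authors' deposited table gives 1.29 with an adjusted p of 0.0011.

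MiR-28a-5p, which shares its seed with miR-708-5p, did not rise with it. Its levels were 86.6, 117 and 132 CPM in control mice, and after irradiation 118, 49.6 and 75.8 CPM. Irradiated replicate 1 lay within the control range and irradiated replicates 2 and 3 lay below it. The log2 change was −0.47 ± 0.35 (SE) with an edgeR adjusted p of 0.264, and the direction depended on single libraries and on scaling. Without irradiated replicate 1 the change was −0.83 with an edgeR adjusted p of 0.0263 (0.0263 to 0.993 over its 17 alternatives). Without irradiated replicate 2 it was 0.0028, and with upper-quartile factors it was 0.014.

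MiR-151-3p, the most abundant strand of the 6, had 361, 326 and 392 CPM in control mice, with 466, 676 and 618 CPM after irradiation. With TMM factors the groups did not overlap, and the nearest libraries were control replicate 3 and irradiated replicate 1. By library totals alone they overlapped. There control replicate 2 (3514 of 7730641 counts) was above irradiated replicate 1 (3571 of 8663686 counts). The log2 change was 0.71 ± 0.25 (SE), a 1.63-fold rise, with an edgeR adjusted p of 0.0314. The authors' deposited table gives 0.75 with an adjusted p of 0.0268. The direction was the same under all 17 alternatives (0.45 to 1.13), but 8 of them lost the call. Among the single libraries these were control replicates 1, 2 and 3 (edgeR adjusted p of 0.0590, 0.121 and 0.0531 without each) and irradiated replicate 3 (0.0621).

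MiR-151-5p was the least abundant strand, with 26.5, 19.6 and 19.01 CPM in control mice against 35.5, 27.3 and 17.5 CPM after irradiation. The groups overlapped, with irradiated replicates 1 and 2 above all controls and replicate 3 below them. The log2 change was 0.30 ± 0.33 (SE) with an edgeR adjusted p of 0.428. Without irradiated replicate 1 it was 0.0016, and over the single libraries left out it reached 0.61. With irradiated replicate 1, the lowest of the irradiated libraries in muscle miRNAs, as the only irradiated library it was 0.90, beside 0.87 for miR-708-3p and 0.57 for miR-151-3p, as values of that library against 3 controls.

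**Figure D2:**
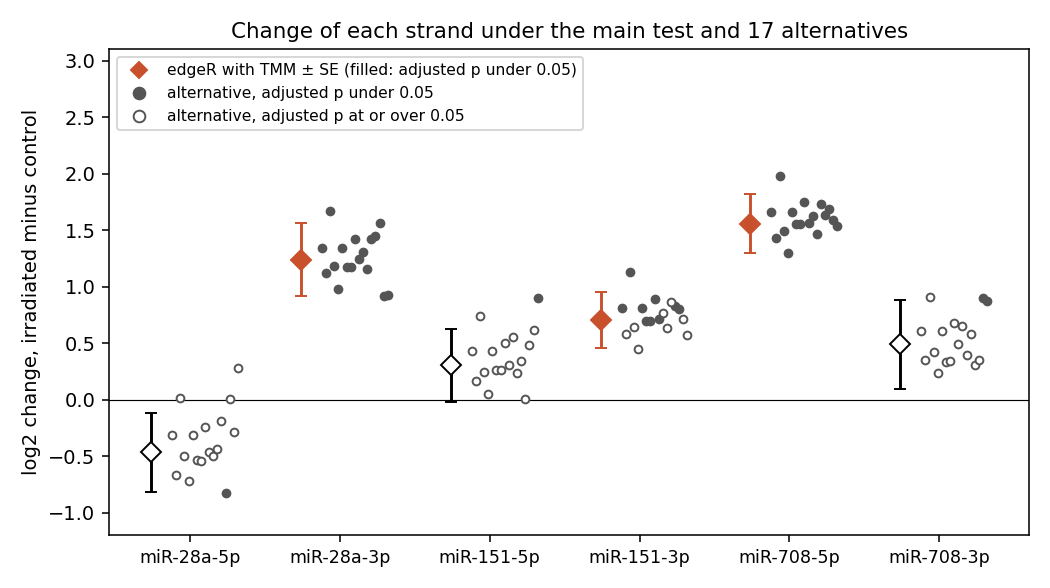
Log2 change of each strand, irradiated minus control, from edgeR with TMM factors (diamond ± SE, filled where the adjusted p is under 0.05) and under the 17 alternatives (circles, filled where the adjusted p is under 0.05). MiR-708-5p and miR-28a-3p stay filled throughout, miR-151-3p is filled in 9 of 17, and miR-28a-5p lies on both sides of 0.

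A ratio of the strands of a hairpin within a library does not depend on how libraries are scaled. For miR-28a the 3p strand made up 36.8%, 28.1% and 30.3% of the hairpin's reads in control replicates 1, 2 and 3, and 41.7%, 67.1% and 70.04% in irradiated replicates 1, 2 and 3. The 5p strand was thus the larger in all controls and in irradiated replicate 1, and the 3p strand was the larger in irradiated replicates 2 and 3. The groups did not overlap, for this hairpin and for miR-708, which held for 32.9% of the 146 hairpins tested below. The mean share was 31.8% ± 4.48 without and 59.6% ± 15.6 with irradiation (SD, n = 3).

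For miR-708 the share of the 3p strand lay on the other side of the controls. Its 3p strand made up 89.5%, 88.1% and 86.8% of the reads in control and 82.6%, 82.1% and 60.4% in irradiated replicates 1, 2 and 3. It remained the larger strand in every library, but each irradiated library was below each control library, and irradiated replicate 3 was far below the rest. The mean share was 88.2% ± 1.34 without and 75.01% ± 12.7 with irradiation (SD, n = 3).

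For miR-151 the 3p strand held nearly all reads in both groups, with 93.2%, 94.3% and 95.4% in control and 92.9%, 96.1% and 97.2% in irradiated replicates 1, 2 and 3. Irradiated replicate 1 was below all controls and irradiated replicates 2 and 3 were above them.

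**Figure D3:**
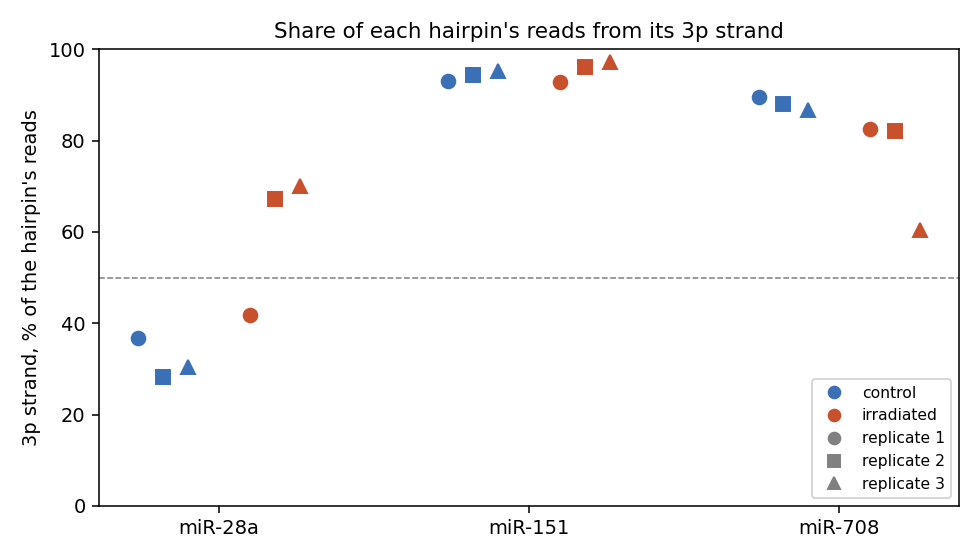
Share of each hairpin's reads that came from its 3p strand, in percent (linear axis from 0), for each control (blue) and irradiated (orange) library, and the dashed line marks equal shares. The irradiated points lie above the controls for miR-28a, where 2 of 3 cross the dashed line, below them for miR-708 and on both sides of them for miR-151.

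The log2 ratio of 5p over 3p was tested with limma over all 146 hairpins whose strands both entered the count test, with p-values adjusted over the 146. For miR-28a it went from 1.11 ± 0.29 to −0.59 ± 0.93 (SD, n = 3), a difference of −1.70 (95% interval −2.80 to −0.60) with a limma adjusted p of 0.0603. For miR-708 it went from −2.90 ± 0.19 to −1.68 ± 0.93, a difference of 1.22 (95% interval 0.15 to 2.29) with a limma adjusted p of 0.137. For miR-151 the difference was −0.43 (95% interval −1.36 to 0.50) with a limma adjusted p of 0.481. None of the 3 passed the threshold in this fit, and 10.3% of the 146 hairpins did. A fit that pairs libraries by replicate number gave 27 hairpins, among them miR-28a (limma adjusted p of 0.0228) and miR-708 (0.0428). The labels state no such pairing. The intervals of miR-28a and miR-708 are not adjusted for the number of hairpins and leave out 0, on opposite sides.

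The size of the miR-28a difference ranked 7 among the 146 hairpins and that of miR-708 ranked 27, where the median size was 0.56. Both depended on single libraries. Without irradiated replicate 1 the miR-28a difference was −2.24 with a limma adjusted p of 0.0121. Over the alternatives with more than 1 irradiated library this adjusted p reached 0.176. Without irradiated replicate 3 the miR-708 difference was 0.68 with a limma adjusted p of 0.177 (0.0428 to 0.348 over its alternatives). With irradiated replicate 1 as the only irradiated library the differences were −0.63 for miR-28a and 0.66 for miR-708. The number of all hairpins that passed was 15, and without single libraries it was 4, 3 and 0 (control replicates 1, 2 and 3) and 29, 2 and 0 (irradiated replicates 1, 2 and 3).

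**Figure D4:**
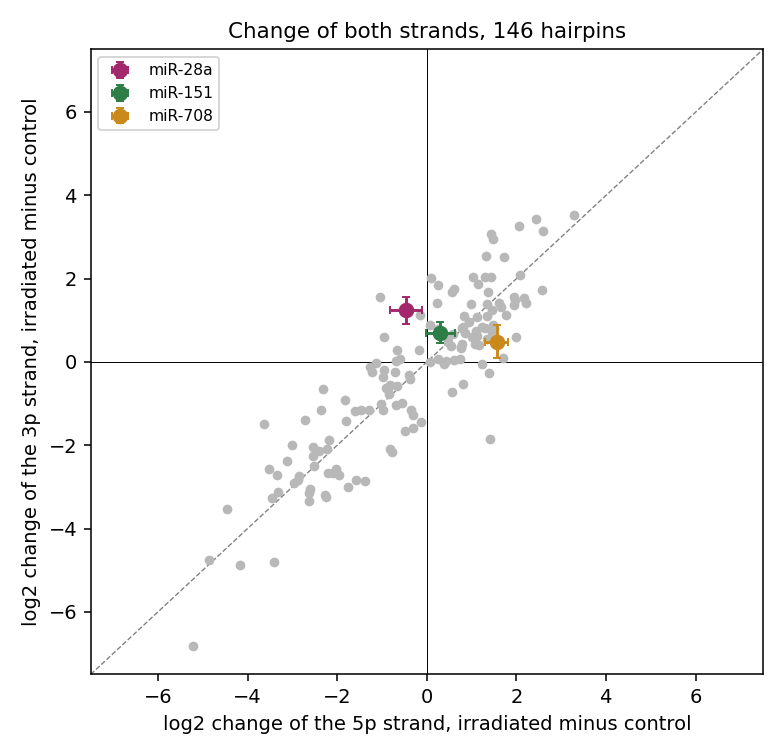
Log2 change of the 5p strand (horizontal) against that of the 3p strand (vertical), irradiated minus control, for 146 hairpins (grey), with the 3 hairpins in colour ± SE and the diagonal of equal change dashed. MiR-28a lies in the upper left, with a 3p strand at 1.24 and a 5p strand at −0.47, and miR-151 and miR-708 lie in the upper right on either side of the diagonal.

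The estimated changes of the miR-28a strands had opposite signs, which held for 10.3% of the 146 hairpins. In 70 of the 146 both strands passed in the same direction, in 2 they passed in opposite directions, in 48 a single strand passed and in 26 neither did. All 3 hairpins described here were among the 48.

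The hairpins were also compared with each other as sums of their strands. MiR-28a summed to 163 ± 26.5 CPM without and 202 ± 50.9 CPM with irradiation, miR-151 to 382 ± 33.3 and 614 ± 103 CPM, and miR-708 to 269 ± 33.7 and 427 ± 170 CPM (SD, n = 3). MiR-151 held 46.8% ± 0.548 of the reads of the 3 hairpins in control mice and 49.4% ± 6.57 after irradiation (SD, n = 3). The share of miR-708 ranged from 30.7% to 36.7% in control and from 21.5% in irradiated replicate 3 to 40.3% in irradiated replicate 2. That of miR-28a ranged from 16.5% to 21.9% and from 10.5% to 22.4%. The log2 ratio of miR-28a over miR-151 differed between groups by −0.39, that of miR-708 over miR-151 by −0.09 and that of miR-708 over miR-28a by 0.29. The exact two-sided permutation p was 0.3, 1 and 0.6, adjusted over the 3 pairs to 0.9, 1 and 0.9, where 3 against 3 libraries allow no p under 0.1. The control and irradiated values overlapped for all 3 ratios. Read by strand the values were different: with 5p strands only, miR-708 over miR-28a differed by 2.08, miR-708 over miR-151 by 1.29 (exact permutation adjusted p of 0.15 for both) and miR-28a over miR-151 by −0.79.

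The miRNAs most like 1 strand of each hairpin were taken by Pearson's r of log2 CPM over the 6 libraries. They came from 305 tested miRNAs with a mean of at least 10 CPM. The strand used was the one with the higher mean level over all 6 libraries. For miR-28a that was the 5p strand, although the 3p strand had the higher mean in irradiated libraries. The r includes the difference between the groups and is given as a description. For miR-151-3p they were miR-574-5p (r = 0.996), miR-330-5p (0.994) and miR-145a-3p (0.987). For miR-708-3p they were miR-126a-5p and miR-126b-3p (both 0.979), whose levels are nearly identical and may be the same reads, and miR-135b-5p (0.835). For miR-28a-5p they were miR-132-3p (0.986), miR-194-5p (0.964) and miR-150-5p (0.933).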

How the data were processed

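The deposited table holds whole-number read counts per mature miRNA, per the file headers. The authors' TPM values are these counts divided by the library total, and values recomputed here were within 4.61e-05 of them. Log2 fold changes and p-values in the table are the authors'. The submitters' processing notes name DESeq2 1.10.1. Which aligner, counting tool and build were used is not given in the sources used here, and the labels call the molecule polyA RNA. Left out were 6 other count columns, for which no label exists here.

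Counts were tested with edgeR 4.0.16 (R 4.3.3, TMM factors of 0.823 to 1.39, filterByExpr defaults, robust quasi-likelihood, Benjamini-Hochberg). All 6 strands passed the filter. Strand ratios, log2((5p + 0.5)/(3p + 0.5)), were tested with limma 3.58.1 (eBayes with trend). Both tests were also run on simulated counts, with the same assumed spread for all miRNAs and libraries. That simulation held no outlying library, so it cannot show how the tests behave with such libraries. A count of 0 allows up to 3 counts (0.323 to 0.388 CPM), for counting error only, since reads carry no molecular identifiers.

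Alternatives were other scaling factors, filters and tools (DESeq2 1.42.0, limma-voom), the replicate block and leaving out libraries. Leaving out irradiated replicates 2 and 3 together was chosen after seeing the data. Members, marker lists and the naming rule (all members, miRNAs with a member's seed or family number, and the 3 most correlated miRNAs per hairpin) were chosen with earlier results of these data known. Strand sequences of miR-28a and miR-708 were matched by name to RefSeq (4 of 6). The edgeR and limma p-values rest on the spread between n = 3 mice per group, moderated over all tested miRNAs or hairpins. Where 1 irradiated library is left, they do not measure the spread between irradiated mice.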

Additional observations from a re-analysis of the deposited data

How the results depend on the processing

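MiR-708-5p and miR-28a-3p kept direction and call under all 17 alternatives each, miR-28a-3p narrowly without control replicate 2 (edgeR adjusted p of 0.0493). MiR-151-3p was not called with library totals (0.58), without a low-count filter (0.64) or with miRNAs of at least 10 CPM on average (0.45), and ranged from 0.63 to 0.87 without single libraries. MiR-28a-5p changed sign with upper-quartile factors (0.014), and ranged from −0.83 to 0.0028 without single libraries. Without single libraries miR-708-3p ranged from 0.31 to 0.90 and miR-151-5p from 0.0016 to 0.61. Without irradiated replicates 2 and 3, where 1 irradiated library is left and the spread is assumed to be that of the controls, the values were 0.28 for miR-28a-5p, 0.90 for miR-151-5p, 0.57 for miR-151-3p and 0.87 for miR-708-3p. A mean of at least 10 CPM gave 210 called miRNAs in place of 318, from fewer miRNAs tested.

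For strand ratios, 0 to 29 hairpins passed without single libraries, and 6 without irradiated replicates 2 and 3, in place of 15. Without single libraries miR-28a ranged from −2.24 to −1.38, miR-708 from 0.68 to 1.498 and miR-151 from −0.82 to −0.11. For miR-151 the ratio changed sign without irradiated replicates 2 and 3 (0.35). Between loci, signs changed for miR-708 over miR-151 with 5p strands only (1.29), and with 3p strands only for miR-28a over miR-151 (0.48) and miR-708 over miR-28a (−0.84). Without single libraries miR-708 over miR-151 ranged from −0.33 to 0.30, miR-708 over miR-28a from −0.17 to 0.83 and miR-28a over miR-151 from −0.54 to −0.085. The causes were not tested.

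The labels state no pairing by replicate number. Correlations of same-numbered deviations were 0.07, −0.03 and 0.21, the last being the highest of all pairs. Control replicate 2 was closest to irradiated replicate 1 (0.12). With 3 libraries per group these values cannot decide whether the numbers pair the libraries. With the replicate block 298 miRNAs passed, and no strand's call changed. For strand ratios the block gave 27 hairpins, among them miR-28a (−1.70, limma adjusted p of 0.0228) and miR-708 (1.22, 0.0428).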
